A study of Homo sapiens with 4 samples.

Results

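The genes described here are 10 interferon-stimulated genes, IFIT1, IFIT2, IFIT3, ISG15, MX1, OAS1, IFI6, IFI27, IFI44 and IFITM1, taken by name from the gene counts of HGC-27 cells, a human gastric cancer cell line. All 10 had a count and passed the filter on low counts, out of 31907 gene names with a count and 16361 genes tested. RNA sequencing covered 4 libraries of this single cell line, 2 of cells given PBS, the vehicle, and 2 of cells given 200 ng/ml rIL-17B (recombinant IL-17B, a cytokine of the IL-17 family), each collected after 48 h. Nothing in the sample labels tells whether the 2 libraries of a group came from separate cultures, so p-values measure only the spread between these libraries, which may be technical. The extract protocol in the labels speaks of monocytes, while the sample source is given as HGC-27.

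Interferons are secreted proteins that cells release when they sense viral nucleic acid. Type I and type III interferons bind their receptors, the kinases JAK1 and TYK2 become active, and a complex that holds STAT2 and IRF9 binds the interferon-stimulated response element in the promoters of target genes. The products of these targets block viral translation, copying or entry, and a low tonic level of them is common in tumor cell lines without added interferon.

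In 9 of the 10 genes, all but IFITM1, expression in rIL-17B replicate 1 lay between 0% and 16.9% of the PBS mean, while rIL-17B replicate 2 held between 64.6% and 94.4% of it over the 10 genes. The 2 libraries labelled with the same treatment therefore did not give the same level, and no member passed the test between the groups. Expression is given as CPM, counts per 1e6 counts of a library, computed for each library on its own. The totals ran from 12888029 to 17555879 counts, and 3 counts, taken as the smallest level that can be shown, corresponded to between 0.171 and 0.233 CPM. Intervals are exact 95% intervals from the counts (Poisson for a level, Clopper-Pearson on the pooled PBS counts for a ratio). They cover counting error only, not the spread between libraries or cultures. PCR copies of a molecule were counted separately, so the intervals can be too narrow even for counting error.

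rIL-17B replicate 1 stood apart from the other 3 libraries across the transcriptome. Among genes with at least 100 counts in each of the other libraries, 342 (3.21%) had at most 3 counts in it. Whether its RNA came from the same cells as the other libraries was not tested, and its values are those of a library labelled rIL-17B. Markers of other cell types were examined beside the interferon-stimulated genes. All 12 of 12 mesenchymal markers were at least 2-fold lower in rIL-17B replicate 1 than in the PBS mean (18.6% of all genes tested). Their summed level was 58821 and 57750 CPM in the PBS libraries, 1184 CPM in rIL-17B replicate 1 and 49253 CPM in replicate 2. FN1, which encodes fibronectin, had 526938 and 418314 counts with PBS against 2172 and 481910 counts with rIL-17B. Epithelial markers summed to 1005 and 1000 CPM in the PBS libraries and to 2243 and 1259 CPM in the rIL-17B libraries. Of the 8 that were tested, 3 were at least 2-fold higher in rIL-17B replicate 1 (2.61% of all genes tested). Among these, KRT18 stood at 213% of the PBS mean by library totals, but between 193% and 197% with TMM, upper-quartile or median-of-ratios scaling. Another marker, KRT19, was at least 2-fold lower in rIL-17B replicate 1 (18.6% of all genes tested), with 1 count in that library. The defining epithelial cadherin gene CDH1 had between 7 and 11 counts in each library, and EPCAM had between 39 and 78. Neural markers summed to 476 and 709 CPM in the PBS libraries and to 59.7 and 350 CPM in the rIL-17B libraries, and OLIG1 was at 0 in rIL-17B replicate 1 only. The 12 monocyte and leukocyte markers summed to between 8.96 and 11.9 CPM per library, with PTPRC at 47, 22, 0 and 36 counts. Of the 4 that were tested, 3 were at least 2-fold lower in rIL-17B replicate 1 (18.6% of all genes tested). PTPRC and ITGAM were at 0 in it, and CSF1R stood at 172% of the PBS mean. The part of these differences in the results for interferon-stimulated genes was not tested, and each result below is given for the 2 rIL-17B libraries separately.

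The response element was sought in the promoters as the letters GAAANNGAAA, read on both strands (TTTCNNTTTC on the other strand), in windows of 300 bases from 250 before to 50 after each annotated start (RefSeq, GRCh38.p14). Promoters were found for 9 of the 10 genes, and IFIT2 was not matched. The letters occurred in 12 of their 14 promoters and in 8 of the 9 genes, against 3.57% of all 35116 promoters and 4.38% of 27305 genes. The pairs of starts of IFI44 and of IFI27 lie so near each other that each pair holds the same sites. Stretches of 7 of these 8 genes are shown so that the copies and their surroundings can be compared, and capitals mark the letters of the motif.
ISG15: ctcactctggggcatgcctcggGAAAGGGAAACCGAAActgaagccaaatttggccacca
IFI6: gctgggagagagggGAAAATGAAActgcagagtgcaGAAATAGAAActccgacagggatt
IFIT1: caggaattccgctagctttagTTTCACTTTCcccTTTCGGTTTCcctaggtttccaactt
IFIT3: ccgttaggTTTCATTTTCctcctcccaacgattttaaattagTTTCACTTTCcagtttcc
IFI27: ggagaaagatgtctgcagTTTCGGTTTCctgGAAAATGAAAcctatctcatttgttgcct
IFI44: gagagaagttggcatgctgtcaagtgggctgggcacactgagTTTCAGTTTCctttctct
IFITM1: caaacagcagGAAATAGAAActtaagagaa

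The windows are chr1:1013362-1013421 for ISG15 and chr1:27672262-27672321 for IFI6, which is read on the minus strand. Those of IFIT1 and IFIT3 are chr10:89392486-89392545 and chr10:89327833-89327892, that of IFI27 is chr14:94110610-94110669 and that of IFI44 is chr1:78649729-78649788, all on the plus strand. In ISG15 2 copies of the motif overlap by 4 bases, starting 113 and 107 bases before the start. IFI6 held 3 copies, starting 156, 115 and 93 bases before the start, of which the nearer 2 are shown. The IFITM1 stretch begins 10 bases before a copy that lies 40 bases before the start and inside an exon of another transcript of the gene. MX1 held the letters 11 bases after its first start and 196 bases before the last of its 3 starts, and the OAS1 window held none, which says only that these letters are not in this window.

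**Figure D1:**
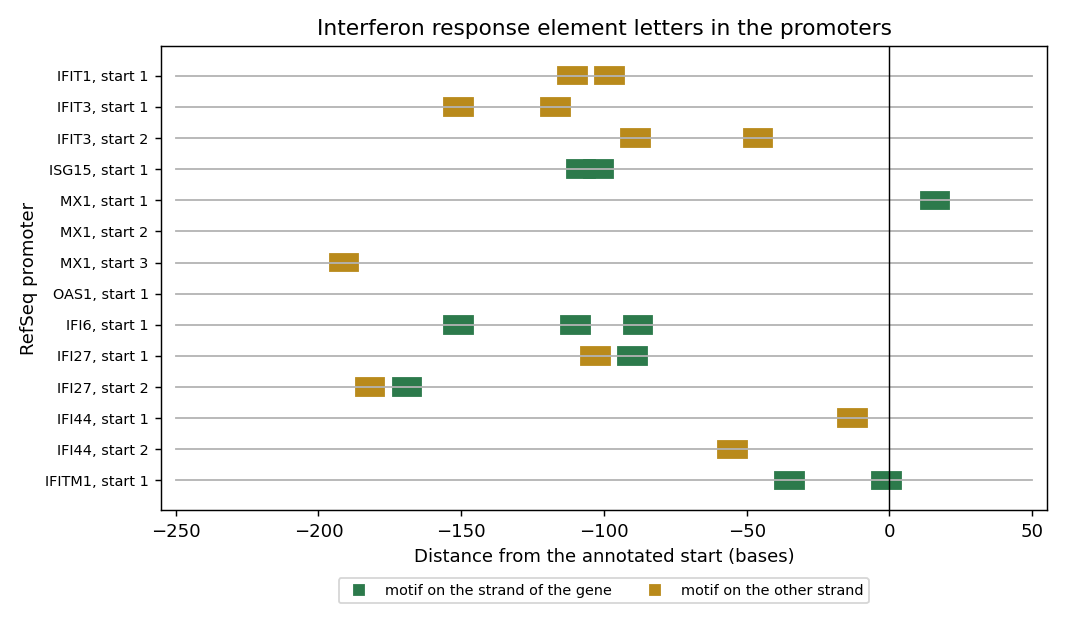
Position of the motif in the 14 RefSeq promoters of 9 interferon-stimulated genes, with the distance from the annotated start in bases on the horizontal axis and a promoter on each line. Boxes are copies of the motif, green on the strand of the gene and ochre on the other strand. Copies are seen in 12 of the 14 lines, the lines without being OAS1 and the second start of MX1.

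The IFIT genes encode proteins with tetratricopeptide repeats, and IFIT1 binds viral RNA whose cap lacks methylation. The 3 genes lie in a cluster on chromosome 10 (GENCODE 29 on GRCh38, plus strand), IFIT2 at 89283694 to 89309276, IFIT3 at 89327894 to 89340971 and IFIT1 at 89392546 to 89406486. IFIT1 had 517 and 384 counts with PBS (32.5 and 29.8 CPM), 37 counts in rIL-17B replicate 1 (2.53 CPM) and 413 in replicate 2 (23.5 CPM). IFIT2, which binds IFIT1 and IFIT3, had 472 and 346 counts with PBS (29.7 and 26.8 CPM), and 14 and 401 counts with rIL-17B (0.958 and 22.8 CPM). IFIT3, which stabilizes IFIT1 on RNA, had 469 and 370 counts with PBS (29.5 and 28.7 CPM), and 37 and 462 counts with rIL-17B (2.53 and 26.3 CPM). In each of the 3 genes both rIL-17B libraries were below both PBS libraries, by a far wider margin in replicate 1 than in replicate 2. Relative to the PBS mean, rIL-17B replicate 1 held 8.13% of IFIT1 (interval 5.66% to 11.2%), 3.39% of IFIT2 (1.84% to 5.69%) and 8.70% of IFIT3 (6.07% to 12.1%). In replicate 2 the shares were 75.5% for IFIT1 (66.7% to 84.6%), 80.8% for IFIT2 (71.2% to 90.7%) and 90.4% for IFIT3 (80.4% to 101%), so that the IFIT3 interval reached the PBS level. Of the 50-base stretches of the IFIT2 transcripts, 7.50% also occur in other genes, all of them in AL353751.1. Exons of AL353751.1 overlap those of IFIT2 by 356 bases on the same strand, and reads from that stretch cannot be assigned. On the other strand, exons of LIPA overlap those of IFIT2 by 65 bases.

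ISG15 (chromosome 1, 1001138 to 1014540, plus strand) encodes a ubiquitin-like protein that is attached to other proteins and is also secreted. It had 795 and 719 counts with PBS (49.99 and 55.8 CPM), 115 counts in rIL-17B replicate 1 (7.87 CPM) and 735 in replicate 2 (41.9 CPM). These were 14.9% (12.3% to 18.1%) and 79.2% (72.8% to 87.0%) of the PBS mean. Both rIL-17B libraries were below both PBS libraries. The enzymes that attach and remove ISG15 are interferon-stimulated too. UBA7, the activating enzyme, had 398 and 320 counts with PBS and 20 and 342 with rIL-17B. UBE2L6, the conjugating enzyme, had 392 and 334 counts with PBS, 0 in rIL-17B replicate 1 and 365 in replicate 2. HERC5, the ligase, had 110 and 108 counts with PBS and 18 and 79 with rIL-17B, and was named after its values were seen. USP18, the protease that removes ISG15 and restrains the interferon receptor, had 108 and 94 counts with PBS and 48 and 88 with rIL-17B. Thus 3 of these 4 genes were at least 2-fold lower in rIL-17B replicate 1 than in the PBS mean, against 18.6% of all genes. As in all 2-fold comparisons here, 0.5 CPM had been added to each value, and USP18 was at 46.6% without that addition. In all 4 the PBS libraries exceeded both libraries with rIL-17B, an order shown by 27.5% of all genes, and 0 of the 4 passed the test.

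MX1 and OAS1 encode antiviral enzymes, a GTPase that traps viral nucleocapsids and a synthase of 2'-5' oligoadenylates that activate RNase L. MX1 (chromosome 21, 41420304 to 41459214, plus strand) had 379 and 244 counts with PBS (23.8 and 18.9 CPM), 8 counts in rIL-17B replicate 1 (0.547 CPM) and 323 in replicate 2 (18.4 CPM). OAS1 (chromosome 12, 112906777 to 112933222, plus strand) had 182 and 141 counts with PBS (11.4 and 10.9 CPM), 0 counts in rIL-17B replicate 1 and 127 in replicate 2 (7.23 CPM). For MX1, rIL-17B replicate 1 held 2.56% of the PBS mean (1.09% to 5.02%) and replicate 2 held 86.1% (74.1% to 97.4%), a value just under the lower PBS library. For OAS1, rIL-17B replicate 1 was at least 54.5-fold lower than the PBS mean, computed against 3 counts in that library, and the two-sided 95% interval, which is wider, begins at 44.2-fold. OAS1 was also the member with the lowest share in rIL-17B replicate 2, 64.6% of the PBS mean (52.1% to 79.4%). Exons of MX1 and OAS1 overlap genes on the other strand, by 236 and 92 bases, and the use of strand in the counting is not given in the sources used here.

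IFI6, IFI27 and IFI44 are named for their induction by interferon, the products of IFI6 and IFI27 being small membrane proteins of the same family. IFI6 (chromosome 1, 27666061 to 27672218, minus strand), which is known to limit cell death and flavivirus replication, had 870 and 688 counts with PBS (54.7 and 53.4 CPM). With rIL-17B it had 76 and 857 counts (5.20 and 48.8 CPM), which were 9.62% (7.53% to 12.1%) and 90.3% (82.9% to 98.1%) of the PBS mean. The 2 PBS libraries differed least for IFI6 among the members, with a ratio of 0.976, and both rIL-17B libraries lay below them. IFI27 (chromosome 14, 94104836 to 94116698, plus strand) had 93 and 113 counts with PBS (5.85 and 8.77 CPM) and 18 and 107 counts with rIL-17B (1.23 and 6.09 CPM). Replicate 1 was thus 5.93-fold lower than the PBS mean (3.59-fold to 9.998-fold), and replicate 2 held 83.4% of it (66.8% to 108%). The groups overlapped for IFI27, since rIL-17B replicate 2 lay between the 2 PBS libraries, which themselves differed 1.499-fold, the widest gap among the members. IFI44 (chromosome 1, 78649796 to 78664078, plus strand), which encodes a cytoplasmic protein, had 453 and 327 counts with PBS (28.5 and 25.4 CPM). It had 2 counts in rIL-17B replicate 1 (0.137 CPM) and 371 in replicate 2 (21.1 CPM). The 2 counts were 0.508% of the PBS mean (0.0611% to 1.83%), a ratio of 197-fold with an interval of 54.6-fold to 1638-fold, and replicate 2 held 78.5% (68.7% to 88.4%).

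IFITM1 (chromosome 11, 313506 to 315272, plus strand), whose product sits in membranes and hinders the fusion of enveloped viruses, did not share this pattern. It had 423 and 278 counts with PBS (26.6 and 21.6 CPM), and 419 and 399 counts with rIL-17B (28.7 and 22.7 CPM). The groups overlapped, rIL-17B replicate 2 lying between the PBS libraries and replicate 1 above both, though below PBS replicate 1 with TMM scaling. Relative to the PBS mean, rIL-17B replicate 1 held 119% (104% to 133%) and replicate 2 held 94.4% (82.3% to 106%). The counts of IFITM1 are uncertain, because 32.0% of its 50-base stretches also occur in other genes, mainly IFITM2 and IFITM3, and its exons overlap those of IFITM2 by 351 bases. The neighbouring IFITM3, which blocks viral entry from endosomes, had 5789 and 4644 counts with PBS and 5340 and 6316 with rIL-17B, which were 101% and 99.3% of the PBS mean. IFITM2, named after its values were seen, had 839 and 680 counts with PBS and 1047 and 986 with rIL-17B.

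**Figure D2:**
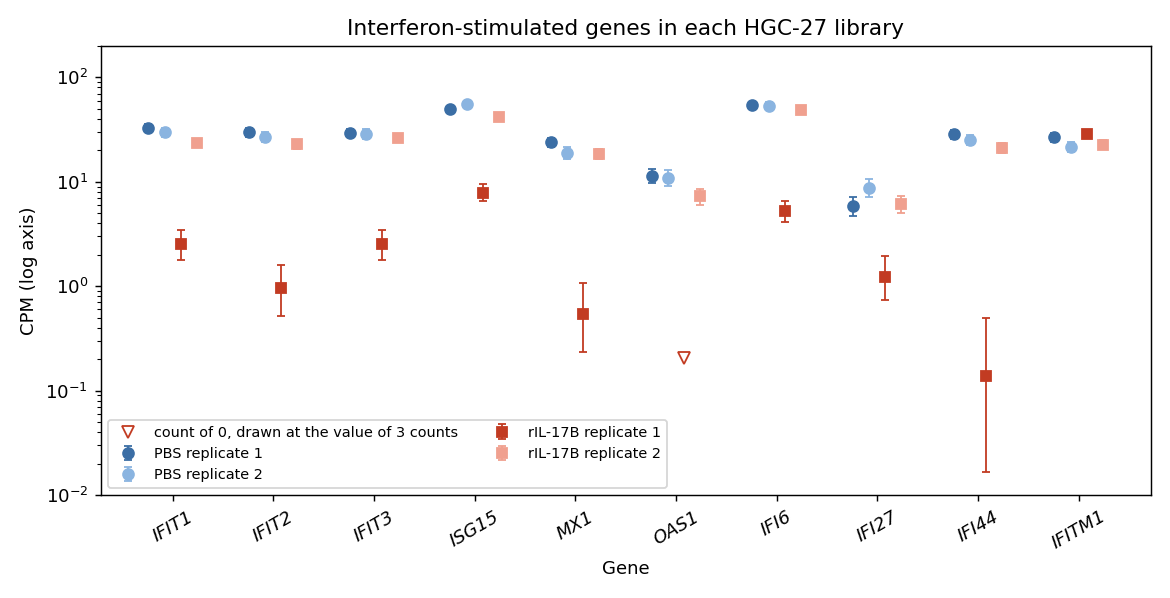
Level of each of the 10 genes in the 4 HGC-27 libraries, in CPM on a log axis, with exact 95% Poisson intervals as bars. Circles are the PBS libraries and squares the rIL-17B libraries, and the open triangle marks OAS1 at 0 counts in rIL-17B replicate 1, drawn at the value of 3 counts. The dark red squares of rIL-17B replicate 1 lie far under the rest for 9 genes and at 28.7 CPM for IFITM1.

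**Figure D3:**
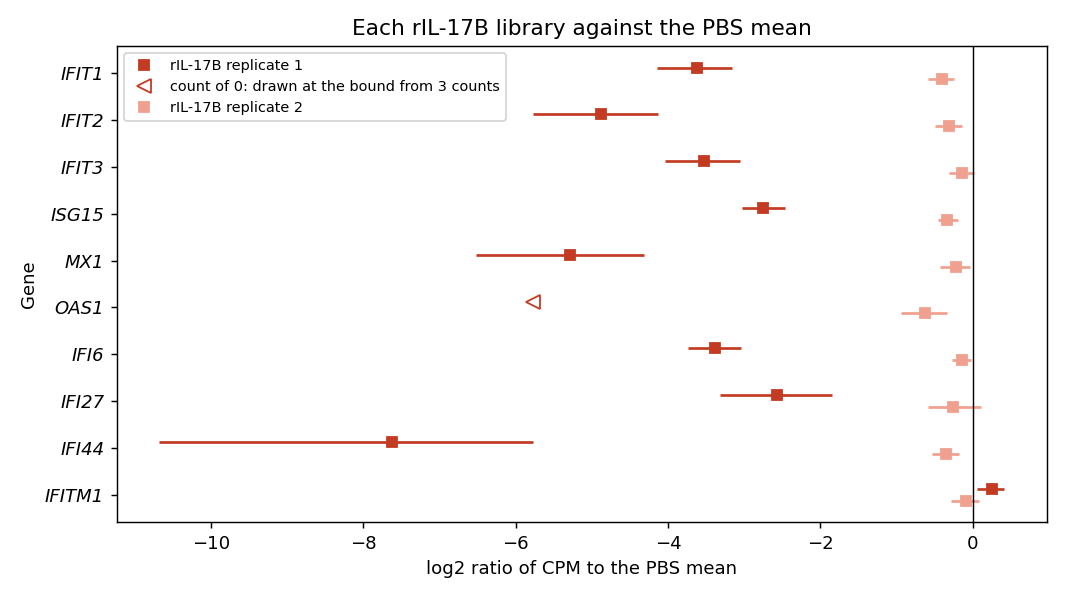
The log2 ratio of CPM in each rIL-17B library to the PBS mean for the 10 genes, with exact 95% counting intervals as lines and no interval for OAS1 in replicate 1, drawn at its bound. Among genes with a count in it, replicate 1 runs from -7.62 for IFI44, from 2 counts, to 0.25 for IFITM1. OAS1, at 0 counts, has no ratio there and may be lower than IFI44. Replicate 2 runs from -0.63 for OAS1 to -0.08 for IFITM1.

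The comparison of rIL-17B with PBS asks whether the cytokine altered these genes beyond the spread between libraries. By the quasi-likelihood test of edgeR, adjusted over all genes after Benjamini and Hochberg, 0 of the 10 members passed an adjusted p of 0.05, where 0.0% of all genes passed. An unadjusted p under 0.05 was reached by 0 of the 10, against 1.38% of all genes, and in DESeq2 0 members passed as well. The log2 fold changes (rIL-17B minus PBS) of the 9 members other than IFITM1 lay between -1.63 and -1.02 and their adjusted p between 0.661 and 0.737. For ISG15, with the smallest adjusted p of the members, the mean of the PBS libraries was 52.9 ± 4.10 CPM and that of the rIL-17B libraries 24.9 ± 24.0 CPM (SD, n = 2 each), and the log2 fold change was -1.11 (SE 0.90, adjusted p = 0.661 from edgeR). IFIT1 averaged 31.2 ± 1.92 CPM in the PBS libraries against 13.03 ± 14.8 CPM in the others, with a log2 fold change of -1.27 (SE 1.14, adjusted p = 0.666 from edgeR). In both, the spread between the rIL-17B libraries was about as large as their mean. IFITM1 had a log2 fold change of 0.02 (SE 0.18, adjusted p = 0.966 from edgeR). The median over the 10 members was -1.15, beside -0.03 over all genes tested. With 2 libraries a group, the smallest two-sided p of an exact permutation test is 0.3333, so no such test was run on single genes.

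The order of the libraries can still be counted without a test. In 8 of the 10 members, all but IFI27 and IFITM1, both rIL-17B libraries were below both PBS libraries, where 27.5% of all genes tested showed that order. The opposite order was found for 0 members and for 31.5% of all genes. At least 2-fold lower than the PBS mean in rIL-17B replicate 1 were 9 of the 10 members, against 18.6% of all genes, and the same 9 were at least 2-fold lower than in rIL-17B replicate 2, against 16.3%. By contrast, 0 members differed 2-fold from the PBS mean in rIL-17B replicate 2 (0.636% of all genes, in either direction) and 0 differed 2-fold between the PBS libraries (also 0.636%). Among the 9 members with at least 100 counts in each of the other libraries, IFI44 and OAS1 were among the genes with at most 3 counts in rIL-17B replicate 1.

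Each rIL-17B library was also set against PBS alone, the lone library being assumed to vary like the PBS group. Without rIL-17B replicate 1, 0 members passed in edgeR, where 2.3% of genes passed as lower, and the log2 fold changes ran from -0.63 for OAS1 to -0.09 for IFITM1 with a median of -0.28. All 10 members were then lower with rIL-17B. By library totals, 0 of the 10 were above the PBS mean in rIL-17B replicate 2, against 49.8% of all genes tested. The largest shift was that of OAS1, -0.63 (SE 0.21), and IFIT1 stood at -0.41 (SE 0.13), where their adjusted p from edgeR was 0.0614 and 0.0539. Over all alternatives the smallest adjusted p of any member lay between 4.69e-100 and 0.993. Without rIL-17B replicate 2, 9 members passed as lower, against 31.9% of all genes, their median log2 change being -3.71 with IFITM1 included, and IFITM1 was at 0.11 (adjusted p = 0.526 from edgeR). The count of members that passed thus went from 0 to 9 with the library left out.

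Levels of different genes were compared per kilobase of merged exons (CPM per kb), averaged over the PBS libraries. IFI6 was highest at 62.5 CPM per kb, followed by ISG15 at 56.2, IFITM1 at 22.3, IFI44 at 13.2 and IFIT3 at 11.02 CPM per kb. Then came IFIT2 at 6.89 and IFIT1 at 6.75 CPM per kb, whose PBS libraries overlapped, so that their order is not resolved. MX1 at 2.48 and OAS1 at 2.26 CPM per kb overlapped likewise, and IFI27 was lowest at 1.76. Because rarely used exons count toward the length, the level of a gene with many of them is understated on this scale. On this scale IFI6 and ISG15 exceeded 96.9% and 96.5% of 16093 genes with PBS, 60.5% and 68.1% in rIL-17B replicate 1, and 96.4% and 95.1% in replicate 2. IFI44 exceeded 79.8%, 9.86% and 74.3% of genes, respectively, whereas IFITM1 exceeded 88.9%, 88.9% and 87.6%. The order of the members was therefore different in rIL-17B replicate 1, where IFITM1 was the highest of the 10 at 26.5 CPM per kb, ahead of ISG15 at 8.36 and IFI6 at 6.01 CPM per kb.

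The pathway upstream of these genes was read from its ligands to its transcription factors. Of 22 interferon genes, 15 had no count in any library, IFNB1 and the type III genes among them. IFNE, an interferon of epithelia, had 34 and 21 counts with PBS and 26 and 42 with rIL-17B, and it was the only ligand to pass the filter on low counts. IFNA1, IFNA6, IFNA10, IFNA16, IFNA21 and IFNG had at most 3 counts in a library. A count of 0 allows a level of up to 3 counts, between 0.171 and 0.233 CPM, and the upper end of its two-sided 95% Poisson interval lies between 0.210 and 0.286 CPM. In bulk RNA, fewer expressing cells and less RNA per cell cannot be told apart.

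All 6 receptor chains were tested and 0 passed, the median log2 fold change being -0.27. IFNAR1, a chain of the type I receptor, had 1320 and 1084 counts with PBS and 937 and 1368 with rIL-17B, which were 76.7% and 93.3% of the PBS mean. IFNGR1, which binds interferon gamma, stood at 60.2% and 98.6%, and its partner IFNGR2 at 31.6% and 80.9%. IFNGR2 was the only chain at least 2-fold lower in rIL-17B replicate 1 (18.6% of all genes). IFNLR1, the type III receptor chain named after its values were seen, was the only chain at least 2-fold higher (2.61% of all genes). It had 64 and 46 counts with PBS and 119 and 74 with rIL-17B. In rIL-17B replicate 1 its share was 214% by library totals, but between 195% and 198% with TMM, upper-quartile or median-of-ratios scaling. Receptor chains thus lay between 31.6% and 214% of the PBS mean in that library, above the range of the 9 members.

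Among the JAK kinases, STAT and IRF factors, 11 of 12 were tested and 0 passed, with a median of -0.63. JAK1 stood at 73.9% and 91.1% of the PBS mean, and TYK2 at 125% and 93.7%. The subunits STAT2 and IRF9 of the complex, named after their values were seen, were at 31.1% and 94.97% (STAT2) and at 49.1% and 65.4% (IRF9) of the PBS mean, IRF9 with only 27 and 32 counts with PBS and 15 and 24 with rIL-17B. In rIL-17B replicate 1, 5 of the 11 were at least 2-fold lower than the PBS mean, against 18.6% of all genes, and the lowest was IRF5 at 17.5%, from 2 counts.

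Of 12 nucleic acid sensing genes tested, 4 were at least 2-fold lower in rIL-17B replicate 1 (18.6% of all genes) and 8 were not. In the test 0 passed. TRIM25, a ligase that activates RIG-I, stood at 95.1% and 101% of the PBS mean, the adaptor MAVS at 81.1% and 95.5%, and TRAF3, which relays its signal, at 76.7% and 93.8%. The 4 lower genes, named for their values, were the RNA sensors DDX58 (RIG-I), IFIH1 (MDA5), DHX58 (LGP2) and TLR3. DDX58 had 447 and 331 counts with PBS and 17 and 410 with rIL-17B. IFIH1 had 173 and 154 counts with PBS and 3 and 183 with rIL-17B. DHX58 and TLR3 were at 0 in rIL-17B replicate 1, with 117 and 102 and with 77 and 69 counts with PBS. In replicate 2, DHX58 stood at 69.4% and TLR3 at 90.5% of the PBS mean. The DNA sensor CGAS went the other way, with 240 and 193 counts with PBS and 335 and 318 with rIL-17B.

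The 8 negative regulators of the pathway centred on a log2 fold change of 0.10, and 0 passed. PTPN11, a phosphatase, stood at 133% and 105% of the PBS mean, PTPN1 at 118% and 108%, and SOCS3, which inhibits JAK kinases, at 142% and 109%. SOCS1, PTPN6 and USP18, named after their values were seen, stood at 4.17%, 32.7% and 46.6% of the PBS mean in rIL-17B replicate 1 and at 55.6%, 62.6% and 71.2% in replicate 2, SOCS1 with 1 count in replicate 1. For 4 of the 8 both rIL-17B libraries were above both PBS libraries, and for 3 both were below, where 31.5% and 27.5% of all genes showed these orders. In rIL-17B replicate 1, 2 of the 8 were at least 2-fold lower (18.6% of all genes).

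A wider list of 61 other interferon-stimulated genes was examined, of which 58 were tested. In edgeR 0 passed, 1 had an unadjusted p under 0.05 (1.38% of all genes), and the median log2 fold change was -0.72. In rIL-17B replicate 1, 34 of the 58 were at least 2-fold lower than the PBS mean (18.6% of all genes), 20 were under 10% of it and 5 were at 0. Of all genes tested, 10.8% were under 10% of the PBS mean in that library, and 896 of 16361 were at 0. At the same time 0 of the 58 were at least 2-fold higher (2.61% of all genes). The shares ran from 0% to 187% with a median of 30.1%. The median was 8.41% over the 10 members and 106% over all genes tested. In rIL-17B replicate 2 the shares ran from 55.1% to 130% with a median of 88.7%, beside 82.1% over the members and 99.9% over all genes. Both rIL-17B libraries were below both PBS libraries in 31 of the 58 genes and above them in 7 (27.5% and 31.5% of all genes). Without rIL-17B replicate 1, 3 of the 58 passed as lower, OAS3, PSMB9 and HELZ2, against 2.3% of all genes. Without rIL-17B replicate 2, 47 passed as lower and 4 as higher, against 31.9% and 23.2% of all genes.

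The 5 most highly expressed genes of the wider list were not among those 2-fold lower in rIL-17B replicate 1. IFITM3, at 101% of the PBS mean by library totals, stood between 91.6% and 93.4% under TMM, upper-quartile and median-of-ratios scaling, so that it has no direction. LGALS3BP, a secreted glycoprotein, stood at 108% and 102% of the PBS mean by library totals and at 98.3% in replicate 1 with TMM scaling. By library totals ADAR, which edits double-stranded RNA, stood at 114% and 102%, and SHISA5 at 115% and 103%. With TMM scaling ADAR and SHISA5 were each at 104% in replicate 1. BST2, which tethers budding virus particles, had 1914 and 1471 counts with PBS and 2845 and 2444 with rIL-17B, above both PBS libraries in both, and a log2 fold change of 0.43 (adjusted p = 0.661 from edgeR). PSMB8, a subunit of the immunoproteasome, had 518 and 419 counts with PBS and 383 and 462 with rIL-17B. It was the gene with the unadjusted p under 0.05 (0.0390 from edgeR). Its log2 fold change was -0.38 and its adjusted p from edgeR was 0.661. Only by library totals were its 2 rIL-17B libraries alike, at 80.5% and 80.9% of the PBS mean. With TMM scaling PSMB8 stood at 73.3% in replicate 1 and 80.6% in replicate 2. The shares were 74.6% and 79.7% with upper-quartile scaling, and 73.2% and 79.7% with median-of-ratios scaling. TRIM14, an adaptor of antiviral signalling, had 443 and 399 counts with PBS and 805 and 634 with rIL-17B.

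**Figure D4:**
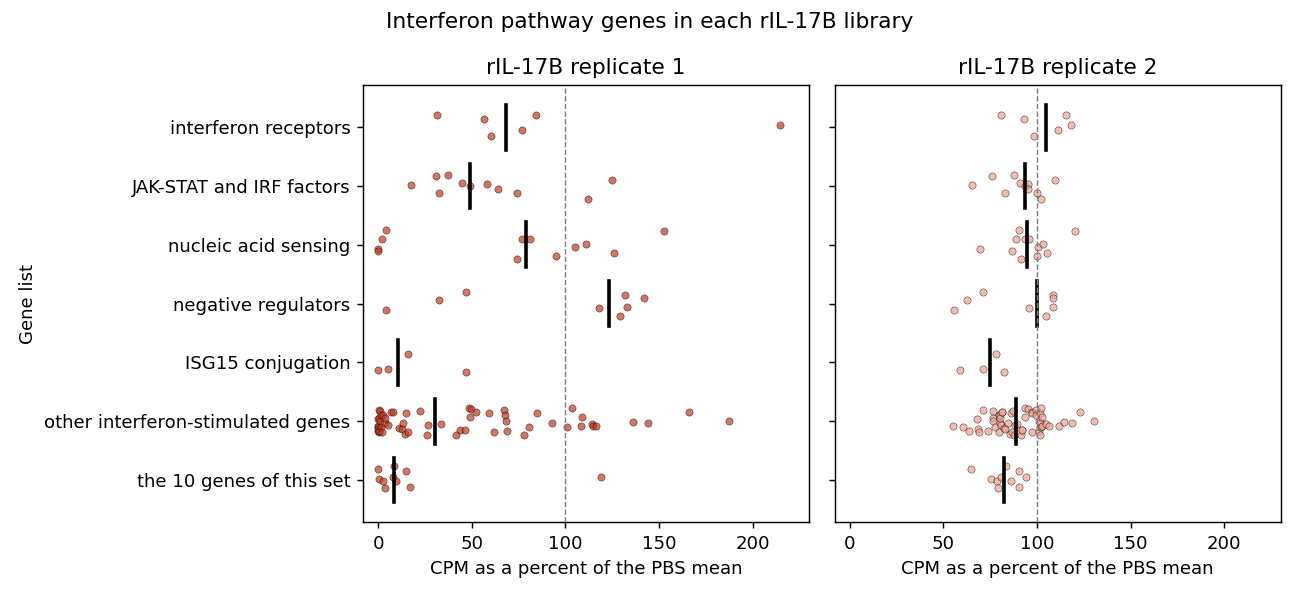
CPM in rIL-17B replicate 1 (left) and replicate 2 (right) as a percent of the PBS mean, for the tested genes of 7 pathway lists, with a point for each gene and a black line at the list's median. The dashed line marks 100%. Medians of the 7 plotted lists run in replicate 1 from 8.41% for the 10 interferon-stimulated genes to 123% for the negative regulators, and in replicate 2 from 74.7% to 105%.

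The response element letters were found in 31 of the 48 genes of the wider list that had a promoter entry (64.6%), in 0 of 5 receptor genes, in 0 of 8 genes of the JAK, STAT and IRF list and in 2 of 10 sensing genes. Among the tested genes of the wider list, 14 of 30 with the letters and 9 of 15 without them were at least 2-fold lower in rIL-17B replicate 1. For 13 others no promoter was found, and 11 of these were at least 2-fold lower, against 19.5% of 5223 such genes over all genes tested. Over all genes tested the shares were 28.4% of 461 genes with the letters and 17.7% of 10677 genes without them. Of the members, 7 of 8 with the letters were at least 2-fold lower, IFITM1 being the exception, and OAS1, whose window lacked them, was at 0.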

How the data were processed

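Total RNA of HGC-27 cells was sequenced after oligo-dT priming and PCR amplification (Smart-seq2). The deposited values are raw counts of reads per gene name, which the authors did not normalize. The submitters' processing notes name Bowtie2 2.2.3, HISAT2 2.1.0, TopHat2, HTSeq 0.6.0 and hg38, with no roles. Strand use is not given in the sources used here.

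Repeated entries of a name held identical counts and were used singly, a missing name was set to 0, and between 22 and 25 date-like names per library (at most 0.244% of counts) were left out. Counts were compared by edgeR 4.0.16 run under R 4.3.3 (TMM factors between 0.97 and 1.07, filterByExpr, quasi-likelihood test, Benjamini-Hochberg adjustment over 16361 genes, threshold 0.05). The 2-fold comparisons added 0.5 CPM. Alternatives were DESeq2 1.42.0, other scalings and filters, summed repeated names, a replicate block and leaving out each library. The edgeR step was tested on simulated counts. Exon lengths, overlaps and shared 50-base stretches came from GENCODE 29, and promoters from RefSeq. The members and lists were chosen with earlier results of these data known. In each list the 3 genes (5 in the wider list) with the highest mean CPM were named, with the 3 of smallest p in the wider list and every ligand with a count, and 1 gene that the rule names is not reported here. Tables and plots were made in Python 3.11.15.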

Additional observations from a re-analysis of the deposited data

How the results depend on the processing

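With DESeq2, at least 10 counts in every library, upper-quartile normalization, library totals without scaling, all genes kept whatever their counts, repeated names summed and a replicate block, 0 members passed, and the smallest adjusted p of any member lay between 0.551 and 0.993. Leaving out each library in turn gave between 0 and 9 members called, 9 only without rIL-17B replicate 2, and between 0 and 1 members with both groups apart and rIL-17B above. IFITM1, at 0.02 on the log2 scale, had a log2 fold change of -0.026 with at least 10 counts in every library and between -0.14 and 0.18 when a library was left out and the cause was not tested. OAS1, MX1 and IFI44 had no value under that filter. The fit with a replicate block changed no call (0 members called, log2 fold changes from -3.59 for OAS1 to 0.02 for IFITM1). Deviations of same-numbered libraries correlated at 0.080 across 16361 genes, and nothing in the labels pairs them. With each PBS library alone as comparator, chosen after seeing the data, the 2-fold counts moved by less than 1.5 times. TMM-scaled CPM and leaving out the added 0.5 CPM moved no 2-fold count by more than that. Scalings chosen after seeing the data put rIL-17B replicate 1 below the PBS mean for IFITM3, at 91.8% (TMM), 93.4% (upper quartile) and 91.6% (median of ratios), and for LGALS3BP, at 98.3% (TMM) and 98.2% (median of ratios), while IFITM1 stayed above it, at 108% to 110.1%, and the other 9 members at 0% to 15.6%. Depth limits OAS1 and IFI44 in rIL-17B replicate 1, at 0 and 2 counts.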
